A study of Homo sapiens with 4 samples.

Results

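The genes described are 10 enzymes of aldehyde, ketone, steroid, vitamin and drug metabolism, chosen by name as a group: the aldo-keto reductases AKR1B1, AKR1B10, AKR1C1, AKR1C2, AKR1C3 and AKR1C4, the aldehyde dehydrogenase ALDH1A1, the cytochromes P450 CYP4F11 and CYP24A1, and the glucuronosyltransferase UGT1A6. Every probe that the platform annotation assigns to them was taken. This gave 18 probes of the 47228 on each array, for 9 of the 10 genes. No probe of the annotation used here carried the symbol AKR1B1, so AKR1B1 was not analysed here. The samples were A549 cells, a human lung adenocarcinoma line, transfected with 50 nM of an siRNA against the long noncoding RNA EPEL or, as control, with 50 nM of a non-targeting siRNA. There were 3 siEPEL arrays, each with its own siRNA (siRNA 1, siRNA 2 and siRNA 3), and 1 control array, all Illumina HumanHT-12 BeadChips. All cells went through the same lipid transfection in the same line, the control cells included, and no untransfected cells were measured. Nothing in the labels ties the arrays to separate cultures. The p-values rest on the spread among the 3 siEPEL arrays, moderated across all tested probes, and this spread includes differences between the siRNAs. The single control array adds no spread of its own.

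Aldo-keto reductases use NADPH to turn reactive aldehydes and ketones into alcohols, aldehyde dehydrogenases oxidise aldehydes to acids, cytochromes P450 insert oxygen, and UDP-glucuronosyltransferases attach glucuronic acid so that the product can be excreted. In A549 cells the sensor KEAP1 is mutated and the transcription factor NRF2, which drives many of these genes through antioxidant response elements, is active without added stress. The AKR1C enzymes interconvert active and inactive steroids and prostaglandins, and their genes are close paralogs in a cluster, so that a probe may bind the transcript of a neighbour.

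The median raw signal per array was between 65.9 and 67.1 on the siEPEL arrays and 68.3 on the control array, and between 35.4% and 36.2% of probes were detected with siEPEL and 35.0% with control (detection p under 0.01). Of 5 epithelial marker genes, 5 were detected on all 4 arrays, and of 8 alveolar type II marker genes 2 were (ABCA3 and LAMP3), whereas SFTPA1, SFTPB, SFTPC, SFTPD, NKX2-1 and NAPSA were detected on none. Detected on all 4 arrays were 1 of 3 leukocyte markers (CD14), 0 of 3 endothelial markers and 2 of 5 fibroblast markers (COL3A1 and LUM). No probe is named EPEL. From knowledge of the lncRNA's older designation LOC90768, which the labels do not give, its gene ID is the one that the annotation names TENM3-AS1. The brighter TENM3-AS1 probe had raw signals of 87.7, 72.5 and 85.2 with siRNAs 1, 2 and 3, against 118 on the control array, and was detected with siRNA 3 and on the control array. The log2 difference of siEPEL minus control was -0.87 ± 0.25 (SE; limma, adjusted p = 1.00). Its second probe was detected on no array. The siEPEL signals were near background, so the size of a knockdown cannot be read from them.

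The enzymes fell into 3 kinds by signal. AKR1B10, AKR1C3, ALDH1A1 and a probe each of AKR1C2 and AKR1C4 lay near the top of the measured range on all 4 arrays. CYP4F11 and CYP24A1 lay lower, though still in the upper range, and varied between siRNAs. UGT1A6 was detected with siRNA 1 alone. AKR1C1 was detected on no array by its only probe. Of the 18 probes, 10 probes of 7 genes were detected on all 4 arrays, and 15 probes of 8 genes were detected on at least 1 array and so were tested.

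**Figure D1:**
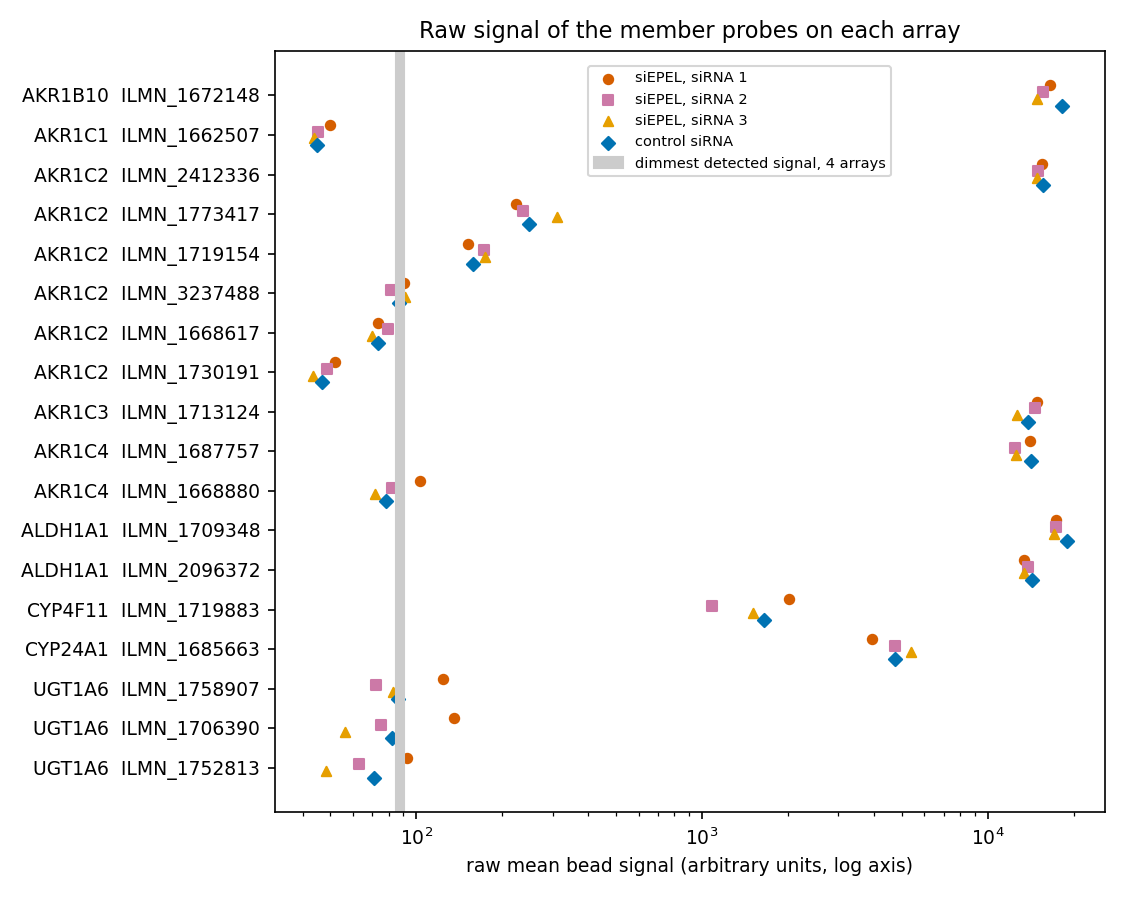
Raw mean bead signal (arbitrary units, log axis) of the 18 probes on the 3 siEPEL arrays and the control array, with the range of the dimmest detected signal of the 4 arrays in grey. The 6 brightest probes sit between 12402 and 18930 on all 4 arrays, while AKR1C2 and AKR1C4 also have probes near or below the detection limit and the only AKR1C1 probe lies below it.

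With limma, 0 of the 15 tested probes passed an adjusted p of 0.05 in either direction, where 0% of the 18200 probes tested did so, and adjusted p was 1.00 for each of the 15. With no probe of the array past the threshold, the count says nothing particular about these genes. At an unadjusted p under 0.05 there were 0 of 15 as well, against 1.16% of all probes higher and 0.94% lower. The smallest unadjusted p among the 15 was 0.445 (limma), for the dimmer AKR1C4 probe. The control array lay within, or level with, the range of the 3 siEPEL arrays for 12 of the 15 tested probes. It lay below all 3 siRNAs for 1 probe, where 21.6% of all tested probes did so, and above all 3 for 2 probes, where 19.9% did so. Across the 8 genes tested, each by its brightest probe, the median log2 difference of siEPEL minus control was 0.01, beside -0.01 over all 10921 genes tested. Over the 7 genes detected on all 4 arrays it was -0.02.

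The AKR1C genes also resemble each other in the DNA before their transcript starts. RefSeq windows around the annotated transcript starts were at hand for 8 of the 10 genes (GRCh38.p14). The following sequences are the 120 bases before each AKR1C start, 5′ to 3′ on the gene's own strand, shown because they make the closeness of the paralogs visible. The capitals mark ATTGG, which is the CCAAT box read on the other strand.
AKR1C1, chr10:4963295-4963414, + strand: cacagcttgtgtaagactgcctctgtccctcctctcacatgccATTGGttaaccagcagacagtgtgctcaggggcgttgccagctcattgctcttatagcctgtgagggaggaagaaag
AKR1C2, chr10:5003858-5003977, - strand: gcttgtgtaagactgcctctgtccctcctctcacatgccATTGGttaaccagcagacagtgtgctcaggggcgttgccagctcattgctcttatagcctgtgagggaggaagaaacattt
AKR1C3 first start, chr10:5048661-5048780, + strand: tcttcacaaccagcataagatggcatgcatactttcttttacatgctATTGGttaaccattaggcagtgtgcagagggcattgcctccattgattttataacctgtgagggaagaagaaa
AKR1C3 second start, chr10:5094294-5094413, + strand: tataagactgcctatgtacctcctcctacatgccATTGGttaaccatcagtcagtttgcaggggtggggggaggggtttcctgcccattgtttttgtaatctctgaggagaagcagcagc
AKR1C4, chr10:5196717-5196836, + strand: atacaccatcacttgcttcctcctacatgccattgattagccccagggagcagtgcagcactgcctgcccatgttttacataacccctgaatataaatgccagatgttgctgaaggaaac
Over the 250 bases before the start, AKR1C1 and AKR1C2 shared 1 identical run of 245 bases. AKR1C1 had 76.8% of paired bases identical to the first AKR1C3 window, 78.6% to the second and 69.7% to AKR1C4. The longest identical runs of AKR1C1 with those windows were 12, 19 and 11 bases. The letters ATTGG or CCAAT occurred before both AKR1C3 starts and those of AKR1C1 and AKR1C2, but in no part of the AKR1C4 window, and in 32.0% of the 35116 windows of all genes. Bases before a start are not part of the transcript that begins there, so these identities do not show what a probe binds. The sequences of the array probes were not used here, so which paralogs a probe can bind was not tested.

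AKR1C1, a 20-alpha-hydroxysteroid dehydrogenase that inactivates progesterone, had raw signals of 49.7, 45.2 and 43.7 with siRNAs 1, 2 and 3 and 44.8 on the control array. Its detection p-values lay between 0.766 and 0.949, so all 4 values are background. The reading belongs to 1 probe (ILMN_1662507), and it does not show that the AKR1C1 transcript is absent.

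AKR1C2, a 3-alpha-hydroxysteroid dehydrogenase that inactivates dihydrotestosterone, was read by 6 probes that disagreed. Probe ILMN_2412336 gave 15419, 15028 and 14863 with siRNAs 1, 2 and 3, against 15602 on the control array. Raw, the control value was above all 3 siEPEL values. After normalization it was below them, with ratios of 1.03-fold, 1.01-fold and 1.05-fold, a log2 difference of 0.04 ± 0.20 (SE). Its direction depended on the scaling: with median scaling the log2 difference was -0.04. Probe ILMN_1773417 gave 223, 236 and 310 with siRNAs 1, 2 and 3, against 247 on the control array. Probe ILMN_1719154 gave 152, 172 and 174, against 158. In both of these the control lay inside the siEPEL range, and the log2 differences were 0.06 ± 0.25 and 0.11 ± 0.21. Probe ILMN_3237488, annotated to another AKR1C2 transcript, was detected with siRNAs 1 and 3, at 90.4 and 90.9, and not with siRNA 2 (81.6) or control (86.6). The remaining AKR1C2 probes, ILMN_1668617 and ILMN_1730191, were detected on no array. Thus 3 of 6 probes annotated to the same gene were detected throughout, and the brightest of them stood at between 71.3% and 76.2% of the brightest signal on its siEPEL array and 74.1% on the control array.

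AKR1C3, which makes testosterone from androstenedione and prostaglandin F from prostaglandin D, was read by 1 probe at 14823, 14659 and 12614 with siRNAs 1, 2 and 3, against 13794 on the control array. After normalization siRNAs 1 and 2 were 1.10-fold and 1.12-fold the control and siRNA 3 was level with it, at 1.00-fold. The raw ratio with siRNA 3 was 0.914-fold. The probe ranked 160 in brightness on both arrays, and quantile normalization gives equal ranks equal values. The log2 difference was 0.10 ± 0.20 (SE), and its 95% interval ran between 0.779-fold and 1.48-fold.

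AKR1C4, the family member known chiefly from liver, where it acts in bile acid and steroid metabolism, had 2 probes at opposite ends of the range. Probe ILMN_1687757 gave 14095, 12402 and 12513 with siRNAs 1, 2 and 3, against 14108 on the control array, a log2 difference of -0.02 ± 0.20 (SE). Probe ILMN_1668880 gave 103, 82.2 and 71.6, against 78.5, and was detected with siRNA 1 alone. Set against the dimmest detected signal of the control array, siRNA 1 was at least 1.29-fold higher by that probe. Probes differ in how strongly they bind, so this contrast does not measure transcript levels, and whether the bright probe reads AKR1C4 or a paralog was not tested.

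AKR1B10, a reductase of retinaldehyde and of aldehydes from lipid oxidation, gave 16539, 15559 and 14838 with siRNAs 1, 2 and 3, against 18121 on the control array. All 3 siEPEL signals were below the control, raw and normalized. The normalized ratios were 0.941-fold, 0.910-fold and 0.897-fold, a log2 difference of -0.13 ± 0.20 (SE) with a 95% interval between -0.58 and 0.32. The normalized siEPEL values spanned 1.05-fold among themselves. This was the bright member furthest from control, and it did not pass (limma, adjusted p = 1.00). The paralog AKR1B15, which is not among the 10 genes, had a probe at 7969, 8152 and 7729, against 7487, with a log2 difference of 0.15 ± 0.20. The AKR1B10 and AKR1B15 probes therefore lay on opposite sides of the control, neither past the threshold, and their difference from each other was not tested. Whether either probe also reads the transcript of the other gene was not tested.

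ALDH1A1, which makes retinoic acid out of retinaldehyde and is used as a marker of stem-like tumour cells, was read by 2 bright probes. Probe ILMN_1709348 gave 17378, 17323 and 16983 with siRNAs 1, 2 and 3, against 18930 on the control array, a log2 difference of -0.04 ± 0.20 (SE). Probe ILMN_2096372 gave 13369, 13839 and 13340, against 14317, a log2 difference of 0.01 ± 0.20. Raw, the control was the highest array for both probes. After normalization the control stayed above all 3 siRNAs for the first and lay inside their range for the second. The 95% intervals ran between 0.710-fold and 1.33-fold for the first probe and between 0.734-fold and 1.38-fold for the second.

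The 6 probes with raw signals over 10000 on all 4 arrays (a level set after the values were seen, reached by 237 of the 47228 probes) stood at between 61.9% and 89.9% of the brightest signal on their arrays. Log2 differences were narrower at that height. Among the 153 tested probes at least as bright as the dimmest of the 6, the 5th to 95th percentile ran between -0.16 and 0.15. It ran between -0.38 and 0.33 among the 1552 dimmest probes detected on all 4 arrays. Whether bead signal still follows RNA amount at this height was not tested. The fitted differences of the 6 probes were between -0.13 and 0.10.

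**Figure D2:**
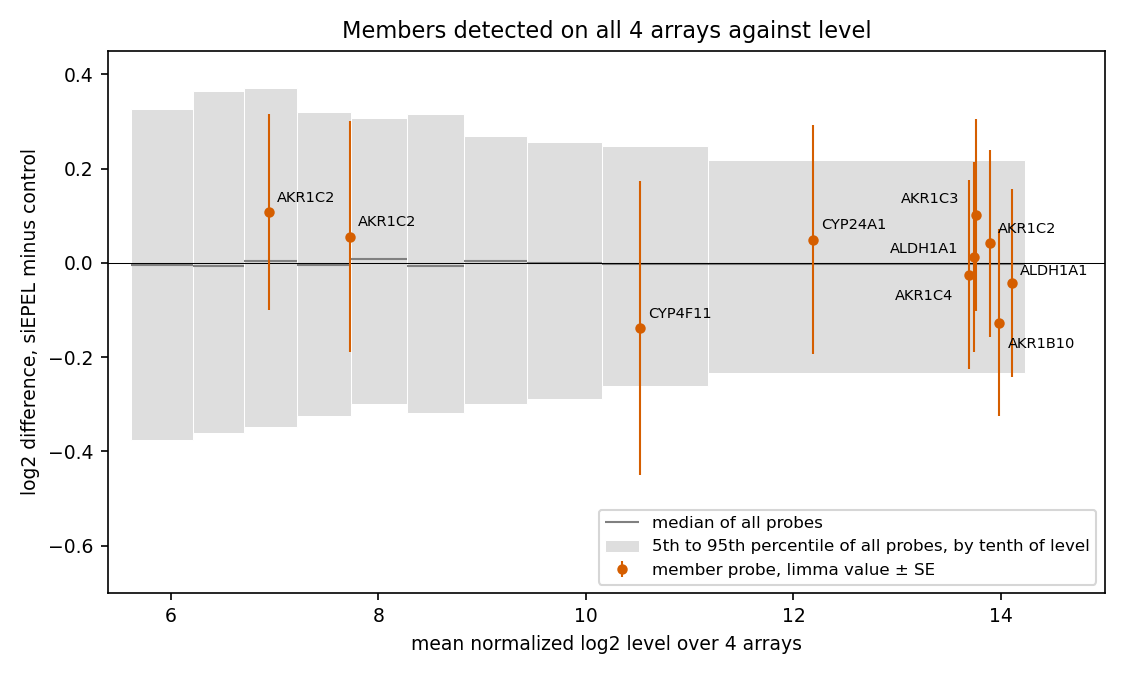
Log2 difference of siEPEL minus control (limma value ± SE, 3 siEPEL arrays and 1 control array) for the 10 member probes detected on all 4 arrays, against the mean normalized log2 level. Grey boxes give the 5th to 95th percentile of all probes in each of 10 level bins. All 10 points lie inside the boxes, between -0.14 for CYP4F11 and 0.11 for an AKR1C2 probe.

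CYP4F11, which hydroxylates long-chain fatty acids and vitamin K at the end of the chain, varied most between siRNAs among the members detected on all 4 arrays. Its raw signal was 2006, 1079 and 1503 with siRNAs 1, 2 and 3, against 1652 on the control array. siRNA 1 was above the control and siRNAs 2 and 3 below it, at 1.23-fold, 0.668-fold and 0.915-fold after normalization. The value with siRNA 2 fell just short of 1.5-fold lower. The siEPEL arrays spanned 1.84-fold among themselves, the log2 difference was -0.14 ± 0.31 (SE), and without siRNA 2 it was 0.08. Of its paralogs, CYP4F3, an omega-hydroxylase of leukotriene B, gave 727, 585 and 616 with siRNAs 1, 2 and 3, against 498 on the control array, above the control with each siRNA and highest with siRNA 1 (log2 difference 0.41 ± 0.22). Of all tested probes, 21.6% lay above the control with all 3 siRNAs. A dimmer CYP4F3 probe had 0.62 ± 0.22 and was highest with siRNA 2, at 1.58-fold, 1.69-fold and 1.35-fold the control. Its control signal, 90.7, was level with the dimmest detected signal of that array. Another CYP4F3 probe was detected on no array. CYP4F12 was lowest with siRNA 2, as CYP4F11 was, at 0.873-fold, 0.710-fold and 0.933-fold the control (-0.26 ± 0.23).

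CYP24A1, the mitochondrial enzyme that breaks down active vitamin D, gave 3941, 4744 and 5382 with siRNAs 1, 2 and 3, against 4748 on the control array. The normalized ratios were 0.850-fold, 1.09-fold and 1.20-fold, so the control lay inside the siEPEL range. The log2 difference was 0.05 ± 0.24 (SE), and -0.06 without siRNA 3. The vitamin D receptor gene VDR was detected on no array by either of its 2 probes.

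UGT1A6, which glucuronidates phenols such as paracetamol, was detected with siRNA 1 by 3 of 3 probes and by none on the other arrays. Probe ILMN_1706390 gave 136, 75.0 and 56.3 with siRNAs 1, 2 and 3, against 81.9 on the control array. Probe ILMN_1758907 gave 124, 72.4 and 83.0, against 86.2. Probe ILMN_1752813, annotated to another UGT1A6 transcript, gave 92.8, 63.1 and 48.2, against 70.8. In each, siRNA 1 was the highest array, with detection p-values of 0.00130, 0.00130 and 0.00649, and the control array was above siRNAs 2 and 3. Against the dimmest detected signal of the control array, siRNA 1 was at least 2.00-fold, 1.74-fold and 1.08-fold higher. The 3 probes share a gene and the sample, so they are not separate observations, and they passed the detection filter only through siRNA 1. Over all 3 siRNAs the log2 differences were 0.11 ± 0.61, 0.17 ± 0.43 and 0.03 ± 0.42 (SE), and without siRNA 1 the probe ILMN_1758907 gave -0.22.

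The UGT1A genes share their last exons and differ in the first. Among the 8 other UGT1A genes with a probe, 4 were detected on at least 1 array: UGT1A3, UGT1A7, UGT1A9 and UGT1A10. Those 4, named after their values were seen, lay at between 1.26-fold and 2.00-fold the control with siRNA 1, a single array with no test of its own. With siRNA 2 they were between 0.829-fold and 1.03-fold, and with siRNA 3 between 0.906-fold and 1.06-fold. UGT1A10, a form known from gut epithelium, gave 303, 181 and 185 with siRNAs 1, 2 and 3, against 177 on the control array, and had a log2 difference of 0.37 ± 0.36 (SE). UGT1A9 gave 166, 127 and 131, against 126, and had 0.24 ± 0.26. The remaining 4 UGT1A genes with a probe were detected on no array. The 7 detected UGT1A probes were thus highest with siRNA 1, a description of probes of which the 3 of UGT1A6 passed the filter only there. The shares of all probes highest with, or detected only with, siRNA 1 were not counted here, so how common this is on that array is not known. The siRNA, its transfection and its array cannot be told apart. Which UGT1A transcripts each probe can bind was not tested, so probes of different UGT1A genes may not be separate observations.

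**Figure D3:**
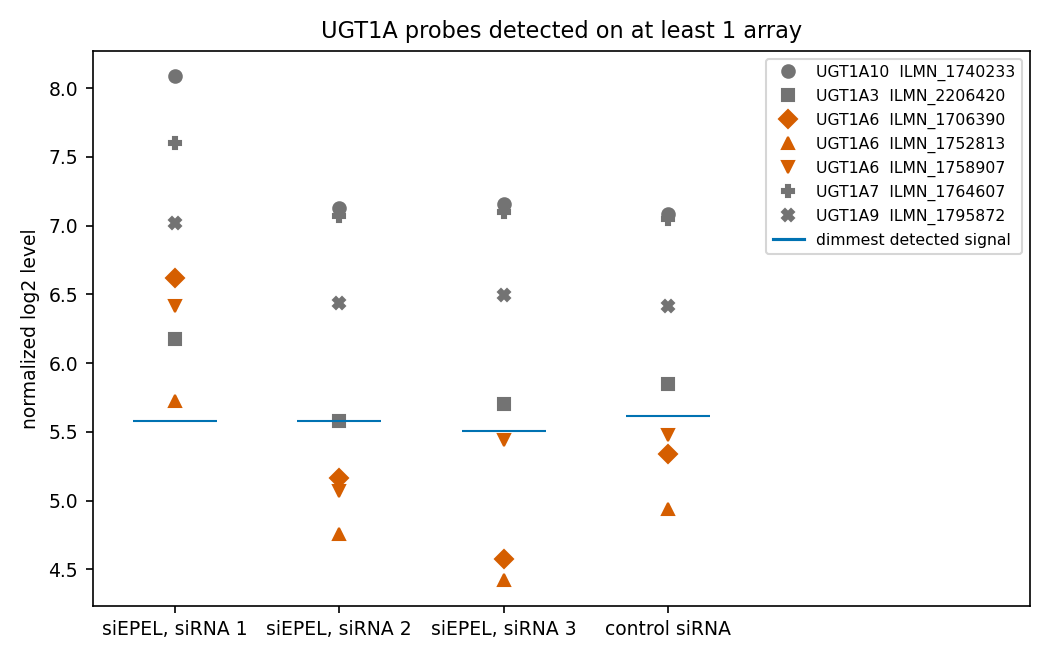
Normalized log2 level of the 7 UGT1A probes detected on at least 1 array (orange for UGT1A6, grey for the others) on the 3 siEPEL arrays and the control array, with the dimmest detected signal of each array as a blue line. All 7 probes are highest with siRNA 1, and the 3 UGT1A6 probes are above the line there only.

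Of the windows before the transcript starts of these genes, 2 of 12 held the antioxidant response element core TGACNNNGC on either strand, which 10.9% of the 35116 windows of all genes held: the second starts of CYP4F11 and UGT1A6. They are shown because they are the member windows with a match. For AKR1B10 and CYP24A1 no window was at hand, so these genes were not searched. Capitals mark the match, which lies on the other strand in CYP4F11. The stretches run over bases 206 to 87 before the CYP4F11 start and 148 to 29 before the UGT1A6 start.
CYP4F11 second start, chr19:15934954-15935073, - strand: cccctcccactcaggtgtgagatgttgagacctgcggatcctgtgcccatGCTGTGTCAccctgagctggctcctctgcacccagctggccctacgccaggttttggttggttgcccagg
UGT1A6 second start, chr2:233692742-233692861, + strand: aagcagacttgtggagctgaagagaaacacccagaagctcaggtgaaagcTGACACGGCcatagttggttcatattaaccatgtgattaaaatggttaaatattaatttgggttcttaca
A match is a description of these letters and says nothing of NRF2 binding, and in the AKR1C windows of 250 bases the letters were not found.

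Taking each siRNA against the control array, 4 of the 15 tested probes were at least 1.5-fold higher with siRNA 1, where 2.35% of all tested probes were. These are the 3 UGT1A6 probes and the dimmer AKR1C4 probe, which passed the detection filter through siRNA 1, so the count carries no weight. With siRNA 2 there were 0 higher (2.94% of all probes) and 0 lower (3.27%). With siRNA 3 there were 0 higher (1.43%) and 1 lower (1.32%), a UGT1A6 probe that was not detected on either array. With siRNA 1 there were 0 lower (3.07%). Of the 10 probes detected on all 4 arrays, 0 reached 1.5-fold with any siRNA. Among all 15517 such probes the share per siRNA and direction lay between 0.632% and 2.73%. Ratios of these comparisons share the control array.

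**Figure D4:**
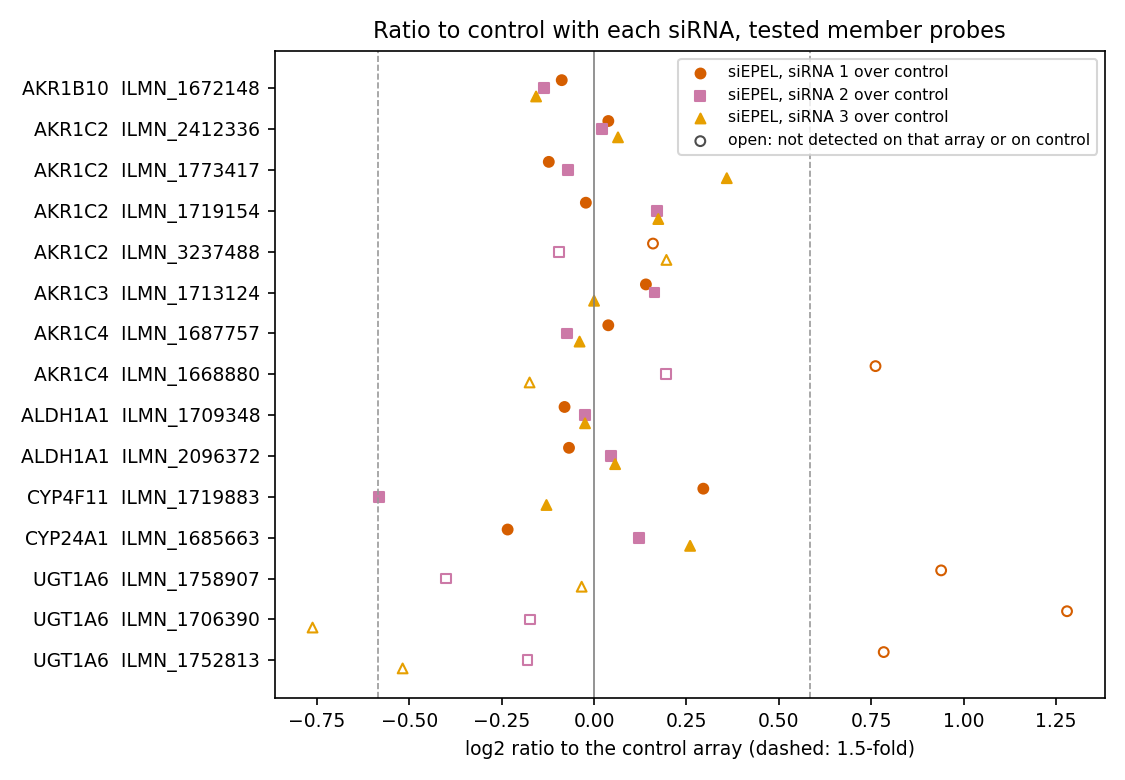
Log2 ratio to the control array for the 15 tested probes with each siRNA, after normalization; dashed lines mark 1.5-fold and open symbols a probe not detected on that array or on the control array. The 10 probes detected on all arrays lie inside the lines, and the open circles to the right are the UGT1A6 and dimmer AKR1C4 probes with siRNA 1.

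Beyond the 10 genes, 177 genes of related function were listed and 103 were measured. Of these, 0 were higher and 0 lower past the threshold (limma), and 30 lay above and 16 below the control with all 3 siRNAs, where 2234 and 2221 of all 10921 genes did. The other glucuronidation genes had the highest median with siRNA 1, at 0.44 on the log2 scale over 8 measured genes, against 0.02 and 0.07 with siRNAs 2 and 3, and the 4 UGT1A genes just described are among the 8. Antioxidant response enzymes, 12 measured, had medians of 0.15, 0.07 and 0.04, beside 0.00 for all genes with each siRNA. Among them HMOX1, which degrades heme, was 1.81-fold, 1.56-fold and 0.826-fold the control, and the cystine transporter SLC7A11 was 1.86-fold, 1.35-fold and 1.03-fold. The sensors, 8 measured, had medians of 0.02, -0.01 and -0.04 with siRNAs 1, 2 and 3. With all 3 siRNAs, 2 of the 8 lay above the control (NFE2L2 and AHR) and 1 below (RXRA). NFE2L2, which encodes NRF2, had a log2 difference of 0.11 ± 0.20 (SE). The dioxin receptor AHR had 0.20 ± 0.20 and the nuclear receptor partner RXRA -0.19 ± 0.21.

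Among the other aldo-keto reductases (4 measured), AKR7A2 was at 0.15 ± 0.24 (SE) and AKR1D1, a steroid reductase known from liver, at 0.12 ± 0.20. AKR1D1 was detected on all 4 arrays by 1 probe and on none by its other. Carbonyl reductases and short-chain dehydrogenases (11 measured) had a median of -0.03. Within that list DHRS2 lay at -0.48 ± 0.23, and RDH10, which makes the retinaldehyde that ALDH1A1 oxidises, at 0.44 ± 0.23. The other aldehyde dehydrogenases (13 measured) had a median of -0.01. ALDH1A3, a second maker of retinoic acid, was 0.797-fold, 0.444-fold and 0.927-fold the control, lowest with siRNA 2, and ALDH4A1 was at -0.34 ± 0.20. Retinoic acid handling genes (6 measured) had a median of 0.06, with CRABP2, a carrier of retinoic acid, at 0.24 ± 0.21 and the retinoic acid receptor gene RARA at 0.19 ± 0.20.

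Other cytochromes P450 and their electron donors (18 measured) had a median of -0.08, and other conjugation and hydrolysis enzymes (17 measured) of 0.06. In the second of these lists GSTO2, a glutathione transferase, gave 169, 180 and 160 with siRNAs 1, 2 and 3, against 228 on the control array. All 3 siEPEL signals of GSTO2 were below the control, the log2 difference was -0.53 ± 0.21 (SE), and the adjusted p was 1.00 (limma, unadjusted p = 0.0334). The sulfotransferase gene SULT1A3, whose near-identical copy SULT1A4 a probe may also read, lay at -0.40 ± 0.21. Of 6 measured efflux transporters, ABCG2 was at -0.21 ± 0.24 and ABCC2 at -0.06 ± 0.20, and the median was 0.02.

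**Figure D5:**
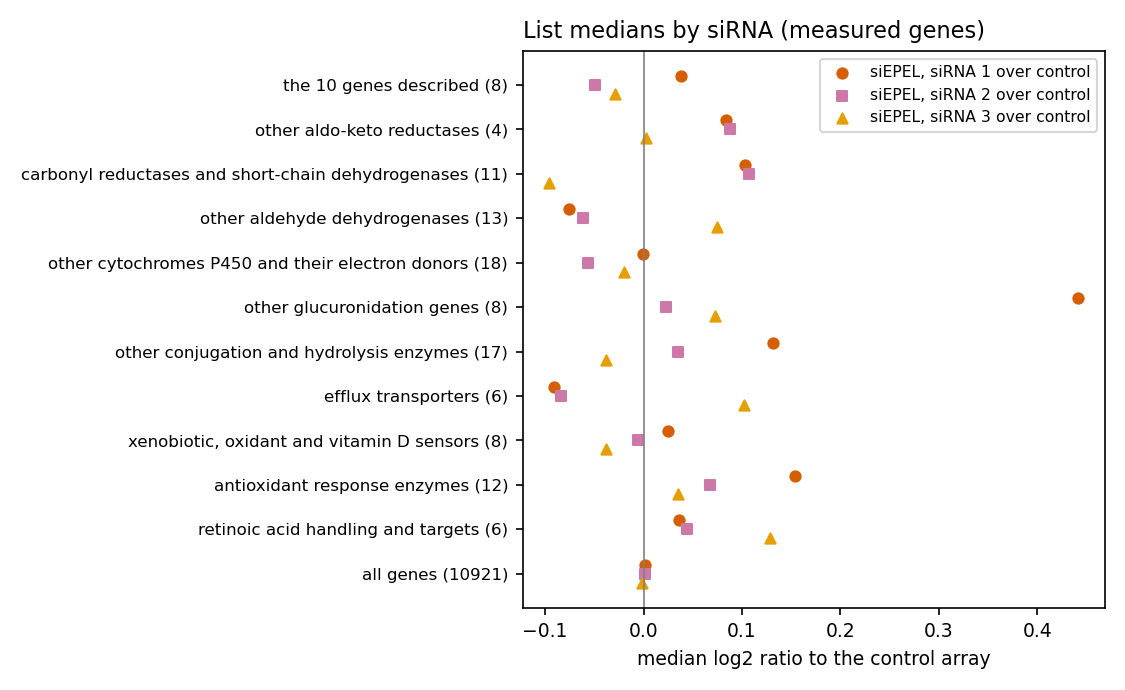
Median log2 ratio to the control array with each siRNA for the 10 genes described, 10 lists of related genes and all genes, with the number of genes measured in brackets. All medians but that of the other glucuronidation genes with siRNA 1 (0.44) lie between -0.10 and 0.15.

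The genes whose 3 ratios lay closest to a member were found among 9768 genes detected on all 4 arrays, by the Euclidean distance over the 3 siEPEL arrays. For AKR1B10 these were ANKRD50, CBX2, HERC5, ARPC3 and POMP, at distances of 0.02 to 0.03 on the log2 scale. For AKR1C3 they were BAD, QDPR, EIF3G, TPMT and NDUFA6, and for ALDH1A1 HSP90AA1, GGCT, PIGK, MKRN2 and UBE2E3. Within a distance of 0.1 there were 162, 199 and 235 genes for AKR1B10, AKR1C3 and ALDH1A1, so such closeness is common in profiles this near to the control.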

How the data were processed

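RNA of 4 A549 samples was measured on Illumina HumanHT-12 BeadChips. The deposited raw intensities are mean bead signals per probe on a linear scale, not normalized. They came with a detection p-value per probe and array, per the file headers. The submitters' processing notes name BeadStudio with no version. The authors also deposited processed intensities, and these served as an alternative. To judge by their values they are linear, background-subtracted and quantile-normalized. For example, AKR1C3 had 13133.3 both with siRNA 3 and on the control array. The log2 difference of AKR1B10 was -0.126571 with them and -0.126573 in the main fit, so they are hardly a separate check. Groups came from the labels.

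Background was estimated from the detection p-values with limma's neqc (limma 3.58.1, R 4.3.3), followed by quantile normalization, an offset of 16 and log2. The offset understates fold changes of dim probes. Tests ran on the 18200 probes detected (p under 0.01) on 1 array or more, by lmFit and eBayes, 2-sided, with Benjamini-Hochberg adjustment over all of them. The fit had 2 residual degrees of freedom and 6.83 of the prior. With 1 control array, its spread was taken to equal that of the siEPEL arrays.

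Gene names came from the platform annotation, updated by gene ID through RefSeq (0 symbols changed). Of 47228 probes, 30113 had 1 gene, 8 several and 17107 none named here. Each gene was represented by its brightest tested probe. Promoter windows were RefSeq's, GRCh38.p14. The members and lists were chosen with earlier results of these data known. By rule, the text names the members, the 2 genes of each list detected on all arrays and furthest from control, NFE2L2, AHR and VDR, and the 5 nearest profiles of AKR1B10, AKR1C3 and ALDH1A1. AKR1B15, CYP4F3 and CYP4F12 as paralogs, TENM3-AS1, UGT1A3 and UGT1A7 were added beside them. The number of arrays limits the precision.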

Additional observations from a re-analysis of the deposited data

How the results depend on the processing

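Under 12 alternatives 0 probes passed the threshold higher or lower, and 0 of them were members: background left in, scaling by the median, an offset of 50, cyclic loess, the deposited processed values, detection on all 4 arrays or no filter, 2 other variance priors, and each siRNA left out. Without adjustment (p under 0.05), 211 probes were higher, 171 lower and 0 were members. That total of 382 was 1863 with no filter, 216 with detection on all 4 arrays, 249 with background left in and 253 with an offset of 50, where filters change the number tested. The median log2 difference of the members, 0.01, was -0.072 with median scaling, 0.061 with the mean of each gene's probes, and between -0.041 and 0.032 with an siRNA left out; the cause was not tested. Of 95 log2 differences of single members, 90 kept their direction and 5 turned. The detection filters and variance priors leave the log2 difference of a probe unchanged. Their values are counted among the 90 but could not turn, so the 90 overstate the stability. Median scaling gave -0.035 for AKR1C2 and -0.018 for CYP24A1. Leaving out an siRNA gave ranges of -0.36 to 0.083 for CYP4F11, -0.056 to 0.19 for CYP24A1 and -0.22 to 0.45 for UGT1A6, and the cause was not tested. AKR1B10 lay between -0.20 and -0.11 throughout. No paired analysis was possible because the control is a single array. Dim signals, such as those of UGT1A6, limit what ratios can show.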
